A study of Mus musculus with 4 samples.

Results

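The genes described here are the ligand Nodal, its co-receptor and nuclear partner, and the direct targets and feedback inhibitors of its signal in mouse haploid embryonic stem cells (haESCs). The 9 members were chosen by name, as the rows whose symbol was Nodal, Tdgf1, Foxh1, Lefty1, Lefty2, Cer1, Smad7, Skil or Pmepa1. All 9 were found among the 23235 symbols of each sample, and 8 of them passed the filter of a mean of at least 1 FPKM (fragments scaled to transcript length and to the mapped fragments of the sample) that left 11733 genes for testing. The cells were of HG165, 1 androgenetic haESC line, which carries a paternal genome only. RNA was sequenced from 2 samples treated with the solvent DMSO and 2 samples treated with RDF, 4 in all. RDF is a mixture of Repsox, an inhibitor of the TGF-β type I receptor, DMH1, an inhibitor of BMP type I receptors, and Forskolin, an activator of adenylyl cyclase, and the effects of its 3 compounds cannot be told apart in this design. By the study's methods, haESCs were kept in a serum medium with LIF, 2i was added only where stated, and feeder cells were left out of most experiments, with RNA sequencing not among the exceptions. The doses and length of treatment of the sequenced samples, and whether haploid cells were sorted beforehand, are not given in the sources used here. Nothing says that the samples of a condition came from separate cultures, so the p-values measure the spread between these samples, which may be technical.

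Nodal is a secreted ligand of the TGF-β family. It binds activin receptors together with the co-receptor encoded by Tdgf1 (Cripto), and the receptors phosphorylate Smad2 and Smad3, which enter the nucleus with Smad4 and reach many of their targets through the forkhead factor Foxh1. Among the targets are the pathway's own brakes. Lefty1, Lefty2 and Cer1 are secreted antagonists, Smad7 blocks the receptors from inside the cell, Skil (SnoN) is a corepressor of Smad complexes, and Pmepa1 keeps receptor-bound Smads from being phosphorylated. In embryonic stem cells and the early embryo the pathway is known for its part in the primed state, mesendoderm formation and left-right patterning.

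The 4 samples did not stand apart within their conditions, with a Pearson r across genes of 0.986 to 0.990 on the log2(FPKM + 1) scale within a condition and 0.975 to 0.980 between conditions. FPKM hold no fragment numbers, and from the steps between low values the depth was estimated at 9520000 to 12430000 fragments a sample, which is approximate. Pluripotent stem cell markers were high in every sample, with a summed level of 7409 and 7367 FPKM in DMSO and 4885 and 4390.1 FPKM in RDF. Most of that sum was Dppa5a, with 5493 and 5539 FPKM in DMSO and 3232 and 2839 FPKM in RDF. Of the 10 markers 3 fell, Dppa5a, Pou5f1 and Utf1, and 5 rose, Sox2, Zfp42, Klf4, Sall4 and Tfcp2l1. Among all genes tested 8.28% were called lower and 13.3% higher by the test described below. Fibroblast markers, listed because the lines are also grown on feeder cells, were low, with sums of 41.5 and 38.3 FPKM in DMSO and 26.4 and 28.4 FPKM in RDF. Of the 7 fibroblast markers tested 4 fell, among them Col1a1 and Postn, and 3 rose, among them Dcn, and none of the 10 was at 0 in all samples. Endoderm markers summed to 15.6 to 17.9 FPKM, with Ttr at 0 in all samples, and of the 3 tested Gata6 rose and none fell. Mesendoderm markers summed to 6.31 to 7.31 FPKM, and the 1 tested, Eomes, was not called. The part of other cells in the results below was not tested.

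RDF-treated haESCs had lower levels of 7 of the 9 members, and none was higher. Lefty2 fell the most, to about 1% of its level in DMSO. On the log2(FPKM + 1) scale it was followed by Lefty1, Smad7, Skil, Tdgf1, Pmepa1 and Foxh1. By the plain ratio of the means Pmepa1 (2.04-fold) was close to Skil (2.03-fold) and fell more than Tdgf1 (1.62-fold). The transcript of Nodal itself did not pass the test, and Cer1 was listed at 0 in all samples. By limma with Benjamini-Hochberg adjustment at 0.05, 8.28% of all genes tested were lower and 13.3% were higher in RDF. The median log2 change of FPKM + 1 was −0.82 over the 8 tested members and 0.03 over all genes tested. In bulk RNA, fewer cells that express a gene and less of its RNA per cell cannot be told apart.

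**Figure D1:**
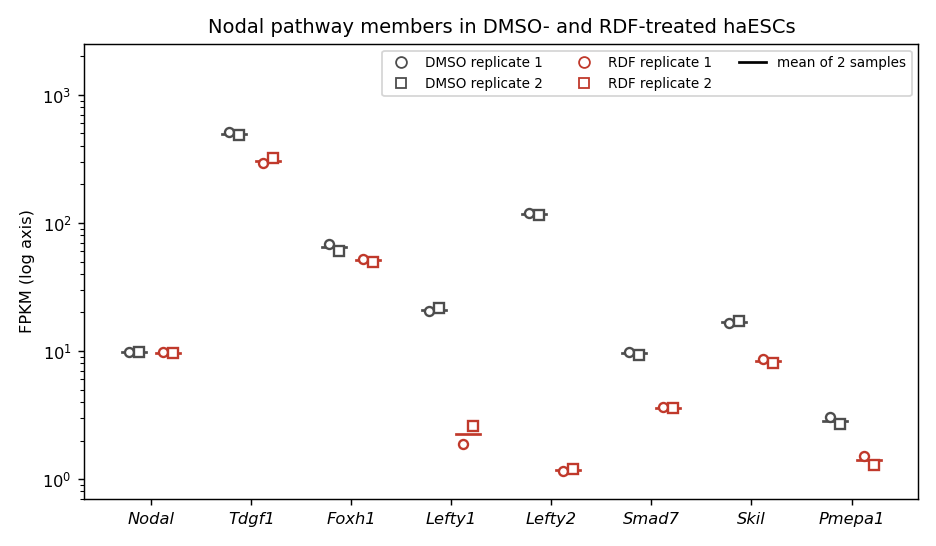
FPKM of the 8 tested members on a log axis, with DMSO samples in grey, RDF samples in red, circles for replicate 1, squares for replicate 2 and a line at the mean of the 2 samples. Nodal lies near 10 FPKM in all 4 samples, whereas Lefty2 drops from 118 to 1.17 FPKM, and Cer1, listed at 0, is not drawn.

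Nodal, on chr10:60880720-60888086 of mm9 (plus strand), measured 9.86 and 9.88 FPKM with DMSO and 9.76 and 9.66 FPKM with RDF. Its level was thus nearly equal in all 4 samples, although both RDF values lay below both DMSO values, as they did for 28.5% of all genes tested. The log2 change was −0.02 (SE 0.069, 95% interval −0.19 to 0.15 and adjusted p = 0.847), which did not pass the test. All 8 tested members had both RDF values below both DMSO values.

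The sequences around Nodal and Tdgf1 are shown because both genes belong to the same receptor complex and only Tdgf1 was called lower. RefSeq promoters (GRCm38.p6, 250 bases before to 50 after the start site) were at hand for 3 of the 9 members, Nodal, Tdgf1 and Cer1. Lefty1, Lefty2, Smad7, Skil, Pmepa1 and Foxh1 had no entry. The motifs searched on both strands were AATCCACA or AATACACA for Foxh1 and CAGAC, and the palindrome GTCTAGAC, for Smads. Capitals mark matches. The Nodal promoter, at chr10:61417722-61418021 (plus strand), held none of them. The Tdgf1 promoter, at chr9:110946109-110946408 (minus strand), held 1 CAGAC that began at position −113 from the start site. The promoter of Cer1, which was listed at 0 in all samples, also held 1 CAGAC, at position −213, and is not printed.
Nodal promoter: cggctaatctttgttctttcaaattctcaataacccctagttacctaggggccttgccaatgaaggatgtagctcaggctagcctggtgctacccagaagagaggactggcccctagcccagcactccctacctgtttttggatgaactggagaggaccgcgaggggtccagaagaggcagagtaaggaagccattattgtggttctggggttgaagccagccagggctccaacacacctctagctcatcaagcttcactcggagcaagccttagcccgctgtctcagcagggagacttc
Tdgf1 promoter: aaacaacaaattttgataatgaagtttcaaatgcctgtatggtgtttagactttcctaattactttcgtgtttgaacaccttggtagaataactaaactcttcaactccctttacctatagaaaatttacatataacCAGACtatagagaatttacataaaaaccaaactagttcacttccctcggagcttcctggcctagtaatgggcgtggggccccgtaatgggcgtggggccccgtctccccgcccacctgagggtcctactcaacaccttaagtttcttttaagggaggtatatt
CAGAC was present in 49.6% of all 32851 promoters of this length, so that a match is common, whereas 1.82% held the Foxh1 motif and 0.213% the palindrome.

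The first intron of Nodal is known to hold an enhancer bound by Foxh1, and its windows are shown for that reason. In the mm9 gene model the intron of 4486 bases held 2 Foxh1 motifs, which began 1327 and 2121 bases after the gene's start. The 100-base windows around them are chr10:60882001-60882100 and chr10:60882795-60882894 (plus strand), with Foxh1 and Smad matches in capitals.
Nodal intron window 1: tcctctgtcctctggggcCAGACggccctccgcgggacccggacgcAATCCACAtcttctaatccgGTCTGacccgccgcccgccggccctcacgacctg
Nodal intron window 2: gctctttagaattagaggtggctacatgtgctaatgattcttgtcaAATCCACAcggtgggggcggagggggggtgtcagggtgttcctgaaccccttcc
The first window also held 2 Smad motifs, 1 on each side of the Foxh1 motif, and the second held none. Of 1268451 windows of this length along chromosome 10, 14837 (1.17%) held a Foxh1 motif. At least 2 Smad motifs were present in 340 of these 14837, which is 0.0268% of all windows. The windows shown were cut around a Foxh1 motif, so their like background is the 340 of 14837. These matches describe the sequence only, and binding was not measured.

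Tdgf1, which encodes the co-receptor that Nodal requires, was the most abundant member in both conditions. Its level, on chr9:110842114-110848662 of mm9 (minus strand), was 509 and 488 FPKM in DMSO and 292 and 322 FPKM in RDF. The conditions did not overlap, and the mean fell from 499 ± 15.1 to 307 ± 21.1 FPKM (SD, n = 2 each), a log2 change of −0.70 (SE 0.069, adjusted p = 0.00280). Even so Tdgf1 stayed among the abundant transcripts, at places 192 and 204 of the 11733 genes by level in DMSO and at places 325 and 288 in RDF. Per unit of Nodal transcript there were 51.7 and 49.4 units of Tdgf1 in DMSO and 29.9 and 33.3 in RDF, on the FPKM scale, which is per length. The annotation also holds a pseudogene, Tdgf1-ps2, whose reads the authors' counting could have split from or added to Tdgf1.

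Foxh1, the forkhead partner of Smad2 and Smad3, showed the smallest fall of the called members. On chr15:76498714-76500378 (minus strand), it had 68.7 and 60.4 FPKM in DMSO and 52.8 and 49.2 FPKM in RDF, with no overlap. The log2 change was −0.33 (SE 0.078, adjusted p = 0.0320). This call depended on single libraries. Without DMSO replicate 1 the adjusted p was 0.0852, without RDF replicate 1 it was 0.101 and without RDF replicate 2 it was 0.167. Without the filter on low values it was 0.0754 and without the mean-variance trend 0.0642, over a range of 0.0131 to 0.167 across 10 alternatives, while the direction stayed negative in each.

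The secreted antagonists Lefty1 and Lefty2 bind Nodal and its co-receptor and are among the best known targets of the pathway. Lefty2, on chr1:182823239-182829234 of mm9 (plus strand), measured 119.9 and 115 FPKM with DMSO and 1.15 and 1.19 FPKM with RDF. Every RDF value was close to 1% of every DMSO value. The ratio of the means was 100.2-fold, and the log2 change of FPKM + 1, which understates it, was −5.77 (SE 0.065, 95% interval −5.93 to −5.61, adjusted p = 1.04e-06). Lefty2 went from place 819 and 862 of the 11733 genes by level in DMSO to 11359 and 11337 in RDF, near the bottom of the genes tested. With the estimated depth and the longest transcript of 2473 bases, its level stood for about 2822 and 3177 fragments in DMSO and 35.4 and 34.1 fragments in RDF, so that it was still detected after treatment.

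Lefty1, the paralog on chr1:182865153-182868531 (plus strand), lies 35.918 kb beyond the end of Lefty2 on the same strand. It had 20.4 and 21.5 FPKM in DMSO and 1.87 and 2.60 FPKM in RDF. The conditions were again far apart, with a 9.38-fold ratio of the means and a log2 change of −2.77 (SE 0.120, 95% interval −3.06 to −2.48, adjusted p = 0.000291). The estimated number of fragments fell from 314 and 389 in DMSO to 37.7 and 48.5 in RDF.

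The order of the Lefty genes turned over with treatment. In DMSO there were 5.88 and 5.36 units of Lefty2 transcript per unit of Lefty1, and in RDF there were 0.615 and 0.460. On the log2 scale with 1 FPKM added, this ratio was 2.50 and 2.37 in DMSO and −0.42 and −0.71 in RDF, a change of −2.998 with a SD of 0.162 between the samples of a condition. The plain ratio within a sample does not depend on the scaling between samples, but the ratio with 1 FPKM added does at such low levels. The change was −3.34 with 0.1 FPKM added and −3.40 with none. A permutation test of 2 samples against 2 cannot go below a two-sided p of 0.333, so no test is given. Reads could be shared between the paralogs. Of the 50-base windows of the Lefty1 transcript 17.9% occurred exactly in Lefty2 and 37.9% with at most 2 mismatches, and of the 100-base windows 4.80% and 21.8%. How the authors' counting divided such reads is not given in the sources used here, so the level of Lefty1 beside an abundant Lefty2 is uncertain.

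The balance between the ligand and these antagonists shifted with them. Nodal stood at 0.0703 and 0.0722 of the summed FPKM of Lefty1 and Lefty2 in DMSO, and at 3.23 and 2.55 times that sum in RDF. The change came from the antagonists' side of the ratio, as Nodal ranged from 9.66 to 9.88 FPKM over the samples. Cer1, a further secreted antagonist of Nodal and BMPs, on chr4:82527655-82531052 (minus strand), was listed at 0 in all 4 samples and could not be compared.

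The members that act inside the cell fell less than the Lefty genes. Smad7, the inhibitory Smad that occupies type I receptors, is on chr18:75527183-75555589 (plus strand) and had 9.82 and 9.38 FPKM in DMSO against 3.62 and 3.60 FPKM in RDF. Its RDF samples were almost equal and far below both DMSO samples, with a 2.66-fold ratio of the means and a log2 change of −1.20 (SE 0.080, adjusted p = 0.000957). Skil, whose product represses Smad targets, is on chr3:30993980-31021499 (plus strand) and had 16.6 and 17.2 FPKM in DMSO against 8.63 and 8.05 FPKM in RDF. That is a 2.03-fold ratio of the means and a log2 change of −0.94 (SE 0.072, adjusted p = 0.00142).

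Pmepa1, which encodes a membrane protein that sequesters Smad2 and Smad3, was the least abundant of the members in DMSO apart from Cer1. On chr2:173049959-173102034 (minus strand), it had 3.03 and 2.68 FPKM in DMSO and 1.503 and 1.297 FPKM in RDF, without overlap. The ratio of the means was 2.04-fold, close to that of Skil, but on the log2(FPKM + 1) scale the change was only −0.68 (SE 0.112, adjusted p = 0.0110), as the added 1 FPKM weighs more at a low level. The call was lost without RDF replicate 1, at an adjusted p of 0.0582, and without RDF replicate 2, at 0.0796, with a range of 0.0109 to 0.0796 over 10 alternatives.

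By size, 3 members fell more than 2-fold on the log2(FPKM + 1) scale, Lefty1, Lefty2 and Smad7, and 0.776% of all genes tested did so. By the plain ratio of the means it was 5 members, with Skil and Pmepa1 added, and the share of all genes by that measure was not computed. All 11733 changes on the log2(FPKM + 1) scale were put in order from the largest fall. Lefty2 was at place 2, Lefty1 at 10, Smad7 at 58 and Skil at 106. Tdgf1 was at 221, Pmepa1 at 231, Foxh1 at 884 and Nodal at 4962. The antagonists thus stood at the extreme of the table, the corepressor and the inhibitory Smad close behind, and the ligand near the middle.

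**Figure D2:**
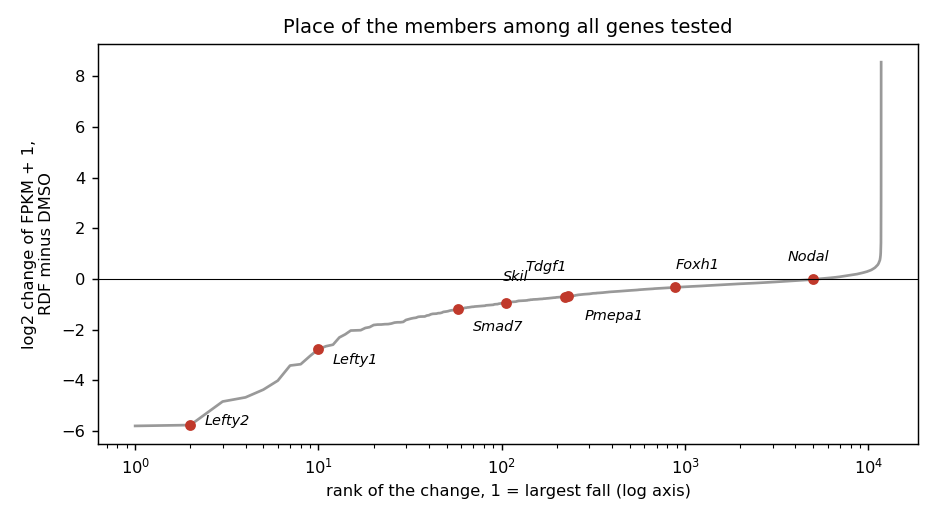
Log2 change of FPKM + 1, RDF minus DMSO, of all 11733 tested genes (grey line) against their place from the largest fall on a log axis, with the 8 tested members as red points. Lefty2 is at place 2 and Lefty1 at place 10, and Nodal lies near 0 at place 4962.

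The order of the members by level changed as well. From high to low it ran Tdgf1, Lefty2, Foxh1, Lefty1, Skil, Nodal, Smad7, Pmepa1 in DMSO, and Tdgf1, Foxh1, Nodal, Skil, Smad7, Lefty1, Pmepa1, Lefty2 in RDF. In DMSO the means of Nodal (9.87 ± 0.0146 FPKM) and Smad7 (9.60 ± 0.316 FPKM) differed by less than the SD of Smad7. Lefty2 thus went from the second place to the last of the 8, and Nodal from the sixth to the third.

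The rest of the pathway did not share one direction. Of 45 other listed genes 36 were tested, of which 4 fell, 10 rose and 22 did not pass, with a median log2 change of 0.13. Among all genes tested 8.28% were lower and 13.3% were higher in RDF. Inhbb, counted among the rises and the largest of them, passed the filter only through the RDF samples. The rises ran from 0.34 to 1.00 on the log2 scale, and of the 10 only 2 were called without RDF replicate 1 (Acvr1b and Ctgf) and 1 without RDF replicate 2 (Ctgf), whereas the 4 falls were called in each of these fits.

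Among ligands and their processing enzymes, 1 of 7 tested fell and 2 rose. Tgfb1, the ligand that signals through its own receptors to Smad2 and Smad3, had 8.37 and 9.75 FPKM in DMSO and 4.15 and 4.29 FPKM in RDF, a log2 change of −0.94 (SE 0.097, adjusted p = 0.00308). Inhbb, which encodes an activin subunit, went from 0.186 and 0.502 FPKM in DMSO to 1.66 and 1.69 FPKM in RDF. Its log2 change was 1.00 (adjusted p = 0.00861). The size of that change depended on the added 1 FPKM, as both DMSO values lay below it, and was larger with 0.1 FPKM added. Pcsk6, a convertase that cleaves Nodal precursors, changed by 0.43 (adjusted p = 0.0128). Both calls were lost without either RDF sample, at adjusted p of 0.0690 and 0.0749 for Inhbb and 0.0743 and 0.0889 for Pcsk6. Gdf3, a ligand that also signals through Tdgf1, had 22.1 to 23.9 FPKM in all samples and a log2 change of 0.01 (adjusted p = 0.959), whose sign turned under other scalings.

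Of the 6 tested receptors and co-receptors 2 rose and none fell, beside 13.3% higher and 8.28% lower among all genes tested. Acvr1b, the type I receptor through which Nodal signals, had 9.17 and 9.02 FPKM in DMSO and 13.1 and 14.5 FPKM in RDF, a log2 change of 0.55 (SE 0.078, adjusted p = 0.00725). Its call was lost without RDF replicate 2 (adjusted p = 0.0612). Tgfbr3, the TGF-β co-receptor betaglycan, changed by 0.60 (adjusted p = 0.0136) and lost its call without RDF replicate 1 (0.0657) or RDF replicate 2 (0.0951). The type II receptor Acvr2b did not pass, with a log2 change of 0.15 (adjusted p = 0.339).

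Of the 4 signal transducers only Smad3 was called, with 2.83 and 2.44 FPKM in DMSO and 3.82 and 4.59 FPKM in RDF and a log2 change of 0.52 (SE 0.117, adjusted p = 0.0284). That call was lost without DMSO replicate 2 (0.0858), RDF replicate 1 (0.0726) or RDF replicate 2 (0.146), and without the filter on low values (0.0778). Smad2 changed by 0.22 (adjusted p = 0.109) and Smad4 by 0.05 (adjusted p = 0.644), and neither passed the test.

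The 14 tested inhibitors that are not members held no fall. Tgif1, a homeodomain corepressor, rose by 0.34, Trim33, a ubiquitin ligase that acts on Smad4, by 0.39, Ppm1a, a phosphatase of Smad2 and Smad3, by 0.34, and Lemd3, an inner nuclear membrane protein that binds Smads, by 0.45, all on the log2 scale. Their adjusted p-values were 0.0181, 0.0173, 0.0109 and 0.0192, and each lost its call without RDF replicate 1 or RDF replicate 2, at 0.0680 to 0.106. Tgif1 (0.0548) and Lemd3 (0.0681) also lost it without DMSO replicate 2, and Trim33 (0.0566) without DMSO replicate 1. The tested feedback inhibitors among the members were called lower, whereas 10 of the 14 other inhibitors were not called and changed in both directions. The 4 rises stand beside 13.3% of all genes tested that were called higher.

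Further targets of Nodal, activin or TGF-β gave 3 falls and 1 rise among the 5 tested, beside 8.28% lower and 13.3% higher among all genes tested. Otx2, a gene of the primed state and the anterior epiblast, fell from 5.03 and 4.51 FPKM to 2.27 and 1.54 FPKM (adjusted p = 0.00767). Ctgf, a matricellular protein gene that TGF-β and YAP induce in many cells, rose from 109 and 111 FPKM to 212 and 201 FPKM (log2 change 0.90, adjusted p = 0.000805), opposite to the members. Its call was kept without RDF replicate 1 (0.0230) and without RDF replicate 2 (0.0219).

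**Figure D3:**
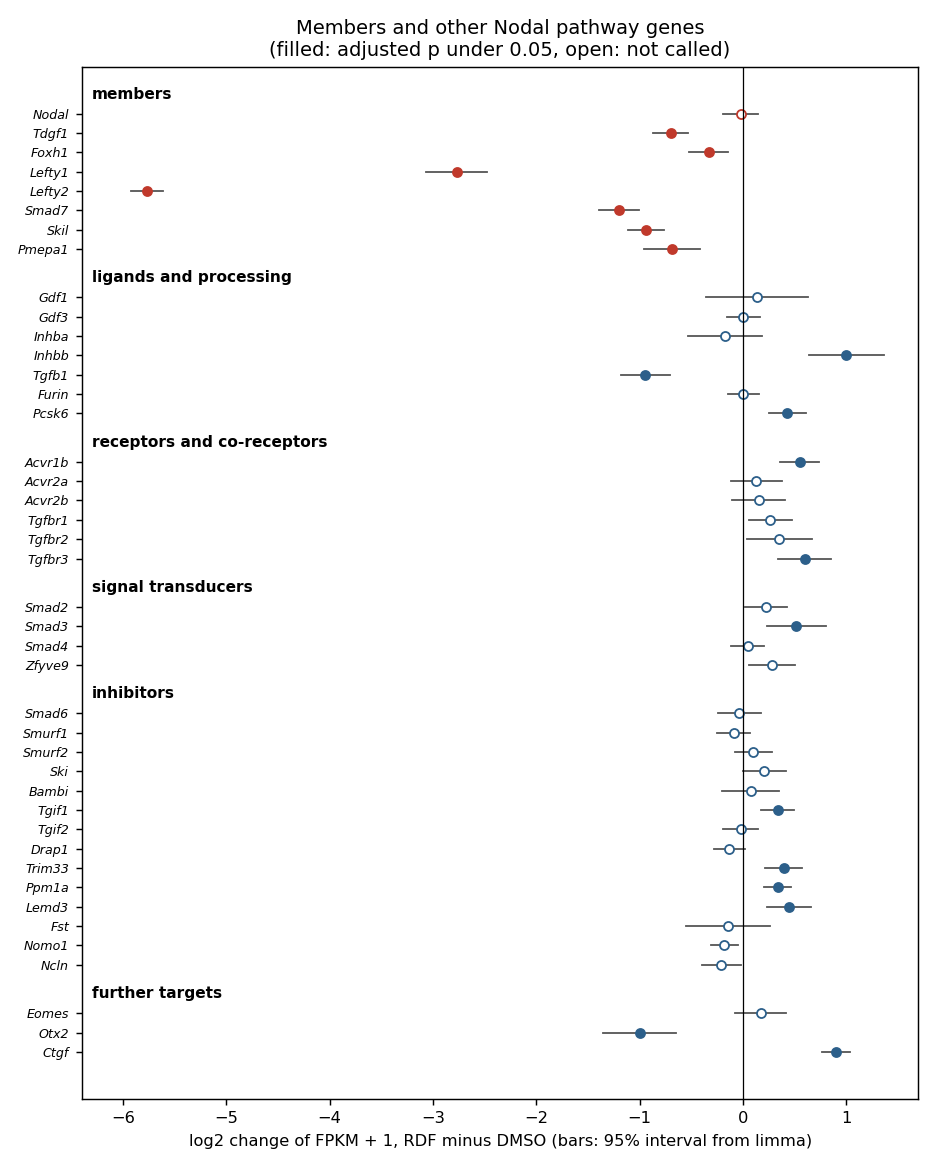
Log2 change of FPKM + 1, RDF minus DMSO, of the 8 tested members (red) and of other tested pathway genes (blue) by role, with 95% intervals from limma, filled where the adjusted p was under 0.05. The red points lie left of 0, Nodal nearly on it, while filled blue points lie on both sides.

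The genes next to the members were examined too. Of the 14 nearest tested neighbours reported here, 2 fell, 1 rose and 11 did not pass, with a median log2 change of 0.05, beside 8.28% lower and 13.3% higher among all genes tested. The neighbours of Nodal, Smad7, Skil, Foxh1 and Tdgf1 were not called. Rab22a, beside Pmepa1, rose by 0.42 on the log2 scale (adjusted p = 0.00901).

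Of these falls 1 was beside Lefty1 and the other beside Pmepa1, and the gene beside Pmepa1 passed the filter only through its DMSO samples. Tmem63a, a gene for a mechanically gated channel, starts 3.943 kb past the end of Lefty1 on the same strand and had 11.2 and 10.7 FPKM in DMSO and 2.52 and 2.35 FPKM in RDF. Its conditions did not overlap, and it fell 4.51-fold by the means, with a log2 change of −1.80 (SE 0.085, adjusted p = 0.000332). This is a smaller fall than that of Lefty2 or Lefty1.

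The genes farther from the Lefty genes were not called lower. BC031781, the nearest tested gene before Lefty2, changed by 0.21 on the log2 scale (adjusted p = 0.0562), and Ephx1, the next after Tmem63a, by −0.28 (adjusted p = 0.102). Farther out within 300 kb, Lin9 (0.28), Acbd3 (0.14), H3f3a (−0.05), Nvl (−0.11) and Cnih4 (−0.13) did not pass, and Wdr26 rose by 0.29 (adjusted p = 0.0240). The distance of 300 kb and the genes beyond the nearest neighbours were chosen after the values had been seen. No gene model of the annotation overlaps a member.

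**Figure D4:**
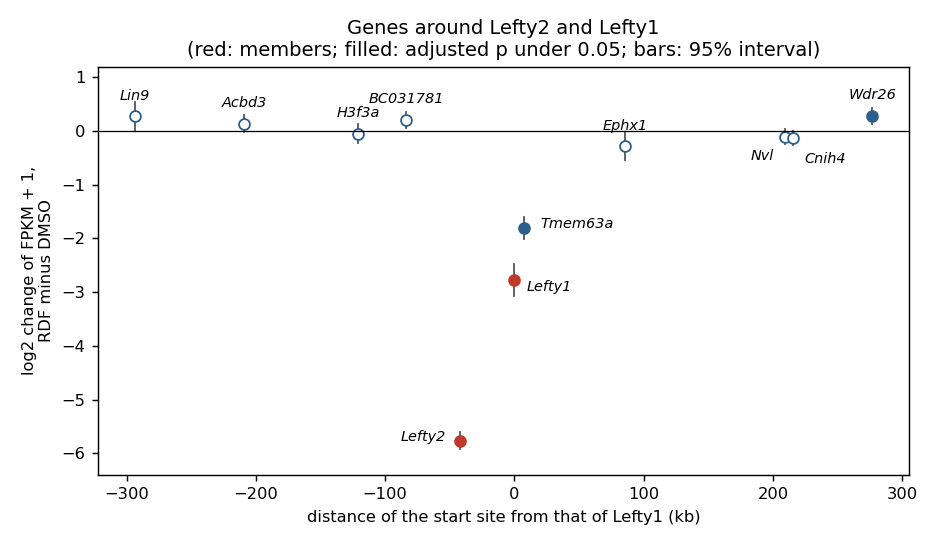
Log2 change of FPKM + 1, RDF minus DMSO, of Lefty1, Lefty2 and the genes described within 300 kb of the Lefty1 start site against the distance of their start sites in kb, with 95% intervals from limma, members in red and filled points where the adjusted p was under 0.05. Lefty2, Lefty1 and Tmem63a lie well below 0, and the other genes drawn lie within 0.29 of it.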

How the data were processed

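Stranded mRNA libraries were sequenced from 4 samples of HG165 haESCs, 2 treated with DMSO and 2 with RDF. Per the labels and the study's methods, the authors mapped reads to mm9 with TopHat2 2.0.14 and Bowtie2 2.1.0, estimated expression with Cufflinks 2.2.1 and deposited FPKM per gene symbol. FPKM were used as deposited, with no counts, so depth was estimated from the steps between low values and is approximate. Of 23235 symbols, the 11733 whose FPKM averaged 1 or more were tested on log2(FPKM + 1) with limma 3.58.1 in R 4.3.3 (lmFit, eBayes with a mean-variance trend, no block for the replicate number), with Benjamini-Hochberg adjustment over these genes and a threshold of 0.05. Standard errors and 95% intervals are limma's, and SDs are of 2 samples in FPKM. Positions and transcripts came from the NCBIM37 (mm9) annotation, and promoters from RefSeq (GRCm38.p6).

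The named genes are the members, the called genes of a written pathway list with Acvr1b, Acvr2b, Smad2, Smad3, Smad4 and Gdf3, and the nearest tested neighbours. Some genes that these rules select are not reported here. The members, lists and tests were chosen with earlier results of these data known. Alternatives changed the pseudocount, the filter, the scaling, the trend or the block, or left out each sample.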

Additional observations from a re-analysis of the deposited data

How the results depend on the processing

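The 8 tested members were refitted under 10 alternatives, which gave 80 values, of which 73 kept their direction and their side of the threshold, 7 lost the call, those of Pmepa1 and Foxh1, and none reversed. Of 180 values of 18 other pathway genes 153 were alike, 23 lost the call and 4 reversed. The log2 change of Gdf3 became −0.0268 with median-ratio scaling and −0.0125 with quantile normalization and ranged from −0.0477 to 0.0590 with 1 sample left out, and that of Smad4 from −0.00226 to 0.0935, none of them past the threshold. Without the filter on low values 606 of all genes were lower and 942 higher, against 972 and 1561. With 1 sample left out, all genes lower numbered 195 to 731 and all genes higher 253 to 1121. Other pathway genes higher numbered 1 to 9. Each of these numbers was smaller without either RDF sample than without either DMSO sample, and the reason was not tested. In each such fit the lone sample was assumed to vary like the others. Counted by the ratio of the arithmetic means, 5 members fell more than 2-fold, with no share of all genes computed by that measure. The log2 ratio of Lefty2 to Lefty1 changed by −3.34 with 0.1 FPKM added and by −3.40 with none, an alternative chosen after seeing the data, as were the repeated fits of Tmem63a and Zbp1. The labels give same-numbered samples nothing in common but the number, and the r of their deviations was 0.134 (rho 0.114). With 2 samples a condition this is 1 correlation over genes, which cannot tell whether such samples were handled together. With a replicate block 7 members were lower and none higher, and 1066 of all genes were lower and 1651 higher.
The estimated depth leaves Lefty2 in RDF at about 35.4 and 34.1 fragments, and FPKM allow no interval from counts.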

Other observations

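Zbp1, a sensor of nucleic acids in innate immunity, is the nearest tested neighbour of Pmepa1, 5.534 kb from it on chr2:173032113-173044424 of mm9 (minus strand). It had 6.43 and 4.59 FPKM in DMSO and 0.812 and 0.357 FPKM in RDF. Its log2 change was −2.04 (SE 0.194, adjusted p = 0.00250), a larger fall than that of Pmepa1. Zbp1 passed the filter only through the DMSO samples, as both RDF values lay below 1 FPKM. The size of its change depended on the added 1 FPKM and was −3.10 with 0.1 FPKM added.

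The mesendoderm targets T and Mixl1 lay below the filter and were not tested. T, the primitive streak gene brachyury, had 1.63 and 1.27 FPKM in DMSO and 0.333 and 0.401 FPKM in RDF, and Mixl1 had 0.278 and 0.347 FPKM in DMSO and 0.0870 and 0.151 FPKM in RDF. Eomes, a T-box target of Nodal, passed the filter and was not called. T and Mixl1 were named after their values had been seen. The other listed targets below the filter, Gsc and Foxa2, went the other way and were not tested either. Gsc had 0.931 and 0.526 FPKM in DMSO and 0.996 and 1.43 FPKM in RDF. Foxa2 had 0.232 and 0.310 FPKM in DMSO and 0.641 and 0.576 FPKM in RDF.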
